A study of Mus musculus with 6 samples.

Results

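The genes of this report are 33 genes that hepatocytes express for plasma proteins and metabolic enzymes, here measured in fat from WT mice and from cavin-3 knockout (KO) mice. The list was proposed because liver genes lay higher in KO fat on these same arrays, so each difference between KO and WT is given for these genes as a description without a test. Of the 33 genes, 31 had a probe set of their own among the 19937 genes that could be named. Gc, which encodes the vitamin D binding protein, was not named by the annotation used here. The 2 probe sets of Ass1, of the urea cycle, are shared by name with the similar sequence Gm5424, so Ass1 was not given a value. For 17 of the measured genes liver is the chief known source, 10 are also known from another organ such as intestine, kidney or brain, and 4 (Hp, Orm1, Cyp2e1 and Arg1) are also made in adipose tissue by adipocytes or by macrophages.

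Hepatocytes secrete most of the proteins of blood plasma, among them albumin, the apolipoproteins that carry lipids, and the fibrinogen chains and enzymes of blood clotting. They also hold the urea cycle and much of the breakdown of amino acids and drugs. Many of these genes share liver-enriched transcription factors, such as HNF1, HNF4A, FOXA and C/EBP proteins, and most of them are nearly silent in adipocytes. Fat does make some of them, and haptoglobin is a known product of adipocytes.

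Each genotype was represented by 3 mice, which were littermates aged 10 weeks, kept on standard chow and fasted for 6 hours. Cavin-3 belongs to the proteins that coat caveolae, the small pits of the plasma membrane. In KO mice a lacZ/neo cassette stands in place of the whole cavin-3 gene in all tissues, and the mice came from 1 targeted ES cell clone on a C57BL/6 background. Neither the labels nor the methods name the fat depot. RNA of whole tissue was hybridised to Affymetrix Mouse Gene 1.0 ST arrays, and the values are log2 signals, on which a difference of 1 is a 2-fold change.

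The targeted gene (named Cavin3 in the annotation) had a log2 signal of 10.05 to 10.90 on the WT arrays and 6.78 to 7.12 on the KO arrays, 0.0843-fold in KO with an adjusted p of 0.0409 from limma. The tissue carried adipocyte markers at high signal on all arrays, for example Adipoq, the adiponectin gene, at 12.30 to 12.47. On each array all 14 measured adipocyte genes exceeded the median signal, and the mean of that list was 11.75 to 11.96. The methods describe male animals, but Xist, the RNA of the inactive X chromosome, reached 11.15 for WT replicate 2 and 11.34 for KO replicate 3, against 3.70 to 6.30 for the remaining 4. Uty, a gene of the Y chromosome, gave 3.36 and 3.21 for this pair and 7.89 to 8.14 for the rest. The results are therefore also given without these 2 arrays. Across all 34760 probe sets, 2 (0.00575%) passed an adjusted p of 0.05 from limma between KO and WT, and 1.95% had an unadjusted p under 0.05.

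Liver genes were high on 2 of the 3 KO arrays and not on the third. Of the 31 measured genes, 30 had a higher mean in KO, where 50.3% of all genes did, and the median difference was 0.40 (1.32-fold) against 0.00 over all genes. Their mean log2 signal was 6.10, 6.02 and 5.84 in WT replicates 1, 2 and 3. It was 6.75, 5.94 and 6.51 in KO replicates 1, 2 and 3. KO replicate 2 thus lay among the WT arrays, and the KO mean of 6.40 ± 0.41 (SD, n = 3) exceeded the WT mean of 5.99 ± 0.14 (SD, n = 3) by about the spread of the KO arrays. Whether more liver transcripts per cell or more cells that hold them lie behind such a signal cannot be told apart in RNA of whole tissue.

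Many of the genes, but not all, shared an order of arrays. KO replicate 1 had the highest of the 6 values for 19 of the 31 genes, where 2993 of all 19937 genes did. KO replicate 3 had it for 8, near the share of all genes (4730 of 19937). Within KO, replicate 2 was the lowest array for 27 genes (7547 of all 19937). Within WT, replicate 3 was the lowest array for 20 (4880 of all 19937). Set against single WT arrays, KO replicate 1 was higher for 29, 26 and 27 genes than WT replicates 1, 2 and 3, where 55.2%, 46.0% and 48.4% of all genes were. KO replicate 3 was higher for 28, 30 and 26 genes (59.0%, 51.7% and 51.6% of all genes). KO replicate 2 was higher for only 10, 13 and 21 of the 31 (51.6%, 43.4% and 41.7% of all genes).

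**Figure D1:**
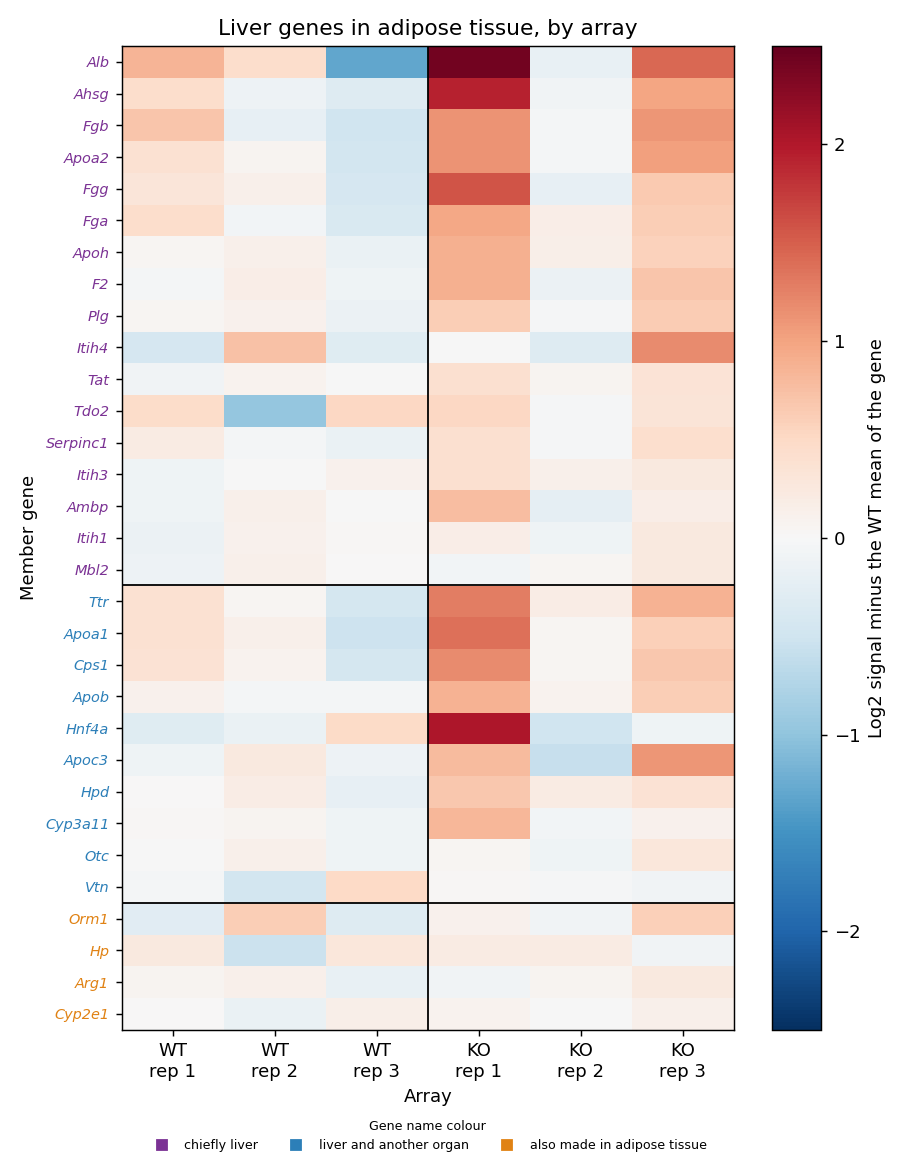
Log2 signal of each of the 31 measured liver genes on each of the 6 arrays, minus the mean of the gene over the 3 WT arrays (colour scale), with genes grouped by known source and sorted by the KO minus WT difference. The columns of KO replicates 1 and 3 are mostly above the WT mean in the upper 2 groups, the column of KO replicate 2 is close to 0, and the 4 genes also made in adipose tissue show no such column.

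The 17 genes chiefly from liver had a mean of 5.52, 5.41 and 5.15 on the WT arrays in order of replicate, and 6.19, 5.31 and 6.00 on the KO arrays. All 17 had a higher mean in KO, with a median difference of 0.40. The 10 genes of liver and another organ behaved alike, with 5.53, 5.47 and 5.35 in WT and 6.36, 5.38 and 5.89 in KO, 9 of 10 higher and a median of 0.46. The 4 genes also made in adipose tissue had means of 10.01, 10.01 and 9.98 in WT and 10.08, 10.05 and 10.23 in KO, with a median difference of 0.09. In both groups of liver genes KO replicates 1 and 3 were above all WT arrays and KO replicate 2 was not. The mean of the 4 genes also made in adipose tissue was a little higher on all KO arrays, at 10.05 to 10.23 against 9.98 to 10.01. Gene by gene, 0 of the 4 had every KO array above every WT array (2.08% of all genes). Against WT replicates 1, 2 and 3 singly, KO replicates 1 and 2 were each higher for 2, 2 and 2 of the 4 genes. KO replicate 3 was higher for 3, 3 and 2. The difference between these groups of genes was not tested.

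**Figure D2:**
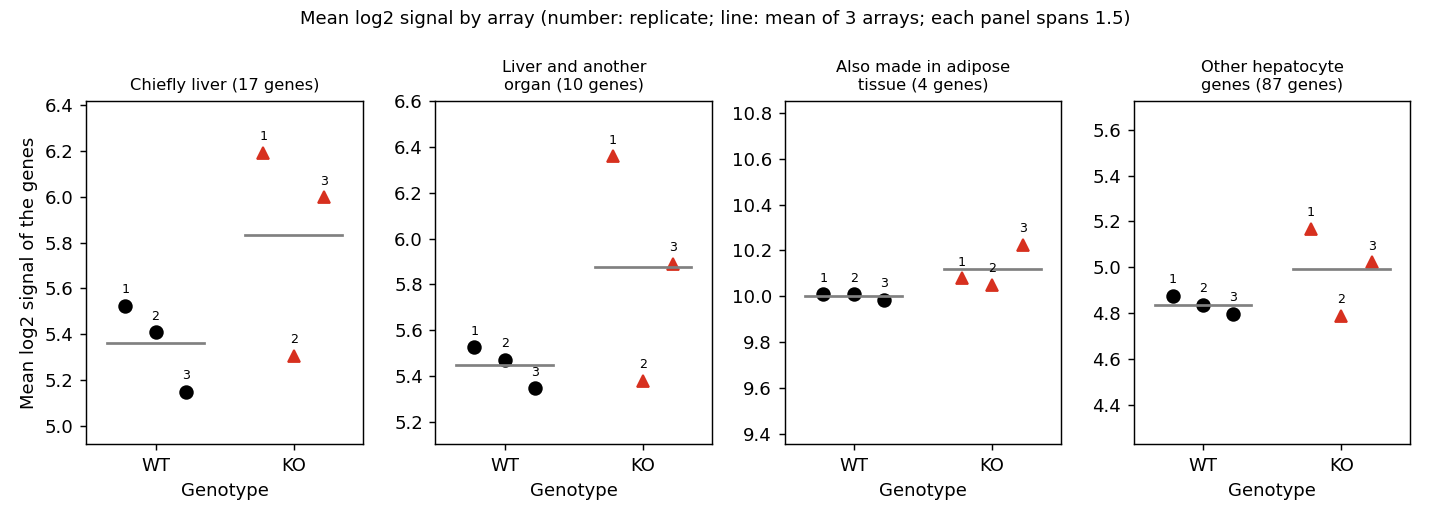
Mean log2 signal of the genes of each group on each array, for WT (circles) and KO (triangles), with the replicate number above each point and a line at the mean of 3 arrays. KO replicates 1 and 3 lie above the WT arrays for genes chiefly from liver, for genes of liver and another organ and for 87 other hepatocyte genes, while KO replicate 2 lies at 5.31, 5.38 and 4.79, within or just below the WT range.

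Many of the 31 genes were dim. 15 lay below the median log2 signal (6.07 to 6.15) on every array, as did 7561 of all 19937 genes. 7 lay above it on every array (10591 of all 19937), namely Alb, Apoc3, Itih4, Vtn, Hp, Orm1 and Cyp2e1. By group means, 8 genes were at least 1.5-fold higher in KO (0.321% of all genes were) and none was 1.5-fold lower. The values of KO and WT did not overlap for 3 of the 31, where 2.08% of all genes had every KO array above every WT array. The reverse, every WT array above every KO array, held for none of them and for 2.53% of all genes. These were Apoh, Itih3 and Hpd, and their lowest KO value exceeded the highest WT value by only 0.02, 0.04 and 0.01. Each of the 31 genes spread more widely inside at least 1 genotype than its 2 means lay apart, as did 98.2% of all genes. Without KO replicate 2 the number without overlap was 21 (7.66% of all genes), and without WT replicate 1 it was 9 (5.12%). It was 5 with WT replicate 2 left out (7.23%). It stayed at 3 when the array left out was replicate 3 of WT (7.77%), replicate 1 of KO (4.59%) or replicate 3 of KO (5.92%).

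Among the carrier proteins of plasma, Alb, the gene of serum albumin, showed the widest swing. Its log2 signal was 8.91, 8.51 and 6.75 in WT replicates 1, 2 and 3 and 10.48, 7.88 and 9.49 in KO replicates 1, 2 and 3. On the linear scale these are 482, 364 and 108 in WT and 1425, 235 and 720 in KO. WT replicate 1 was thus above KO replicate 2, and the arrays spanned 13.2-fold in all, 4.46-fold within WT and 6.07-fold within KO. The WT mean was 8.06 ± 1.15 (SD, n = 3). That of KO was 9.28 ± 1.31 (SD, n = 3), 2.34-fold higher, and leaving out single arrays moved this from 1.49-fold (WT replicate 3 left out) to 3.80-fold (KO replicate 2 left out). Alb stands in the list of altered genes of the study, which was drawn from these arrays. Without WT replicate 3 and KO replicate 1 the difference was -0.03.

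Ahsg encodes fetuin-A, a plasma protein that binds calcium phosphate, and it came second by size. It was at 6.04, 5.48 and 5.28 in WT and at 7.53, 5.52 and 6.58 in KO, 1.93-fold higher by the means. Only KO replicates 1 and 3 stood above all WT arrays. Ttr, the carrier of thyroid hormone and retinol binding protein, was at 5.67, 5.34 and 4.84 in WT and at 6.57, 5.46 and 6.15 in KO (1.71-fold). Ambp, the precursor of α1-microglobulin and bikunin, was at 4.68, 4.92 and 4.79 in WT and at 5.57, 4.57 and 4.97 in KO (1.18-fold). Ambp was high in KO replicate 1 alone, and without that array its KO level was 0.981-fold of WT.

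To show the control regions of these genes, the 250 bases before the transcription start are printed for 4 members, taken from the RefSeq promoter table (GRCm38.p6). Alb, Fga and Fgb were chosen because these windows hold the letters GTTAAT, a core of the site of HNF1, on either strand, and Apoh because it holds TGTTTAC, a core of the site of FOXA factors. Capitals mark these letters or their reverse complement.

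Alb, chr5:90460620-90460869, + strand: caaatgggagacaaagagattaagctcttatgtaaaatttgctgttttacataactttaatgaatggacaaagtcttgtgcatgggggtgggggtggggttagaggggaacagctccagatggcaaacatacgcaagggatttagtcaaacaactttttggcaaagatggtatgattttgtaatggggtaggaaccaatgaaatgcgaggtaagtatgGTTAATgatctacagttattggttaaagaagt
Fga, chr3:83025903-83026152, + strand: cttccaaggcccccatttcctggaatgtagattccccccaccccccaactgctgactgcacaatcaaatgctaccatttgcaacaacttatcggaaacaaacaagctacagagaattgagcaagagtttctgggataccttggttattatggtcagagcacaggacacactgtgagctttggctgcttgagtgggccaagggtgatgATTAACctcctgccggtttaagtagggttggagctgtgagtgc
Fgb, chr3:83049864-83050113, - strand: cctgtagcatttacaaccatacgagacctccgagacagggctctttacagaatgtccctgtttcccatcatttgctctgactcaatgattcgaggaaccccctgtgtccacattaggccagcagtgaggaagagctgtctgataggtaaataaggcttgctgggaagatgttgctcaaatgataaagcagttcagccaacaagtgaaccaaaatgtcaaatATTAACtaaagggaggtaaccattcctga
Apoh, chr11:108395047-108395296, + strand: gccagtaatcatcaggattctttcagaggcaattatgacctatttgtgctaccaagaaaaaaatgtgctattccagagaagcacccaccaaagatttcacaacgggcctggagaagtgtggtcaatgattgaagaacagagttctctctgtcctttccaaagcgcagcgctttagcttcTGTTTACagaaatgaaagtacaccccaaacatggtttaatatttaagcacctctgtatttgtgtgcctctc

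The capitals lie close to the start of transcription in the 3 genes with the HNF1 core, beginning 32 bases before it in Alb, 43 in Fga and 29 in Fgb, and 71 bases before it in Apoh. Promoters were given for 26 of the 33 genes (28 promoters). Searched on both strands, GTTAAT occurred in 7 of the 28 (25.0%), Gc and Hnf4a among them, and in 6.43% of all 32851 promoters. The FOXA core occurred in 3 (10.7%, against 3.17%) and CAAAGTCCA, a core of the HNF4 site, in 1 (3.57%, against 0.384%), that of Cyp3a11. TTNNGNAA, a loose core of the C/EBP site, occurred in 11 (39.3%, against 36.8%). TATAAA, the letters of the TATA box, occurred in 6 (21.4%, against 12.4%). The TATAAA matches began 31 bases before the start in Cyp2e1 and 60 to 234 bases before it in the other promoters. The FOXA core of Apoh overlaps a C/EBP core, and no other pair of different motifs overlapped in the member promoters, while matches of 1 motif overlapped each other in Vtn (TATA box) and Hnf4a (C/EBP core). Of 16 promoters of genes that ran closely with the other members (r of at least 0.8, as defined later) 3 held GTTAAT and 8 the C/EBP core, and of 10 promoters of the remaining measured genes 3 held each. A match is a description of the sequence only, and the member promoters are a small set chosen for the tissue that uses them.

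All 5 apolipoprotein genes had higher means in KO, with differences of 0.44 to 0.70. Apoa1, the main protein of HDL, was at 6.84, 6.58 and 5.94 in WT and at 7.83, 6.50 and 7.05 in KO (1.60-fold). Apoa2, the second HDL protein, was at 6.75, 6.45 and 5.93 in WT and at 7.50, 6.32 and 7.40 in KO (1.62-fold). In both genes KO replicate 2 fell between WT replicates 2 and 3. Apob, the scaffold of VLDL, was dimmer, at 4.52, 4.38 and 4.37 in WT and 5.30, 4.51 and 5.04 in KO (1.44-fold), with KO replicate 2 just under WT replicate 1. Apoh, or β2-glycoprotein I, which binds phospholipids, was at 4.88, 4.96 and 4.67 in WT and at 5.73, 4.99 and 5.42 in KO (1.45-fold). This is 1 of the 3 genes without overlap, and KO replicate 2 exceeded WT replicate 2 by 0.02. Apoc3, an inhibitor of lipoprotein lipase, was highest in KO replicate 3, with 6.75, 7.11 and 6.74 in WT and 7.65, 6.29 and 7.98 in KO (1.36-fold), and its lowest array was KO replicate 2.

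The 3 fibrinogen chain genes ran together. Fga was at 5.02, 4.52 and 4.22 in WT and at 5.56, 4.76 and 5.20 in KO, a difference of 0.58. Fgb was at 6.05, 5.15 and 4.85 in WT and at 6.48, 5.30 and 6.45 in KO (1.65-fold), and Fgg at 4.54, 4.36 and 3.81 in WT and at 5.80, 4.02 and 4.88 in KO (1.59-fold). In all 3 genes WT replicate 1 was the highest WT array and WT replicate 3 the lowest of all. Fga had a second, dim probe set with signals of 4.17 to 4.32 on every array, which was not used because the brighter one stands for the gene.

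The other clotting and plasma proteins differed less. F2, the gene of prothrombin, was at 5.15, 5.37 and 5.11 in WT and at 6.10, 5.05 and 5.90 in KO (1.39-fold), and Plg, the gene of plasminogen, at 5.02, 5.09 and 4.82 in WT and at 5.58, 4.95 and 5.60 in KO (1.32-fold). KO replicates 1 and 3 again exceeded every WT array in both. Serpinc1, which encodes antithrombin, was 1.20-fold by the means, with all 6 arrays between 5.08 and 5.64. Itih1 and Itih3, heavy chains of the inter-α-trypsin inhibitor, were 1.08-fold and 1.19-fold, and the 6 arrays spanned 0.38 and 0.49. Mbl2, a lectin of the complement system, was 1.05-fold with values of 5.59 to 5.96. Vtn, the gene of vitronectin, was the 1 measured member with a lower mean in KO (0.981-fold), and it was bright on every array, at 8.48, 8.08 and 9.04 in WT and 8.56, 8.51 and 8.44 in KO. Its direction turned without WT replicate 3 (1.17-fold).

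Itih4, a plasma protein of the acute phase, followed the arrays with high Xist signal and not the other liver genes. The WT values were 6.19, 7.34 and 6.31 and the KO values 6.61, 6.29 and 7.79, so that the highest WT array lay above 2 of the KO arrays. Without KO replicate 3 its KO level was 0.893-fold of WT and without WT replicate 2 it was 1.56-fold. Tdo2, the first enzyme of tryptophan breakdown in liver, was low in WT replicate 2 alone, at 3.47 against 4.40 to 4.94 elsewhere, and was 0.862-fold in KO without that array. Without both arrays of high Xist signal the difference was 0.20 for Itih4 and -0.24 for Tdo2.

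Of the urea cycle, Cps1, the entry enzyme, followed the common order, at 5.58, 5.29 and 4.76 in WT and at 6.40, 5.26 and 5.89 in KO (1.56-fold). Otc, the next enzyme, was among the dimmest members, with 2.81 to 3.20 on all 6 arrays and no separation (1.05-fold). Arg1, which macrophages also express, was at 4.24 to 4.55 in WT and 4.34 to 4.67 in KO (1.06-fold). Of this cycle, Cps1 was thus the 1 measured gene with a clear swing between arrays.

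Hpd and Tat, enzymes of tyrosine breakdown, were 1.33-fold and 1.21-fold. Hpd was at 5.56, 5.75 and 5.36 in WT and 6.23, 5.76 and 5.93 in KO, so KO replicate 2 exceeded WT replicate 2 by only 0.01. Tat was at 5.20, 5.36 and 5.27 in WT and 5.67, 5.34 and 5.62 in KO, a range of 0.48 over all arrays. Cyp3a11, a cytochrome P450 of drug metabolism, was at 2.91 to 3.09 in WT and at 3.85, 2.95 and 3.11 in KO, high in KO replicate 1 alone and 1.01-fold without it. Another probe set on the array is named for Cyp3a11 together with related Cyp3a genes and was not used, and probes of such close relatives may share transcripts.

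**Figure D3:**
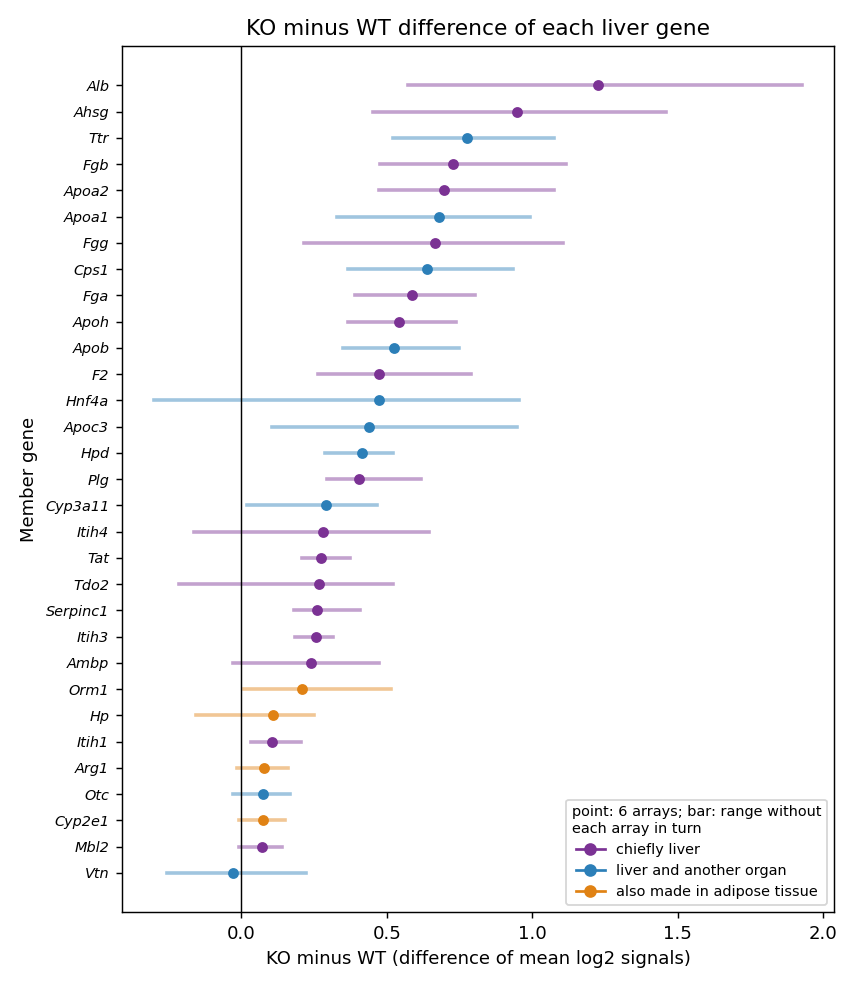
Difference of mean log2 signals, KO minus WT, of each of the 31 liver genes (point) and its lowest and highest value when each array was left out in turn (bar), coloured by known source. The points run from -0.03 for Vtn to 1.22 for Alb, and the bars of 21 genes stay above 0.

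Hnf4a, the 1 transcription factor among the members, had another order of arrays. It was at 5.91, 6.05 and 6.70 in WT and at 8.24, 5.73 and 6.11 in KO. KO replicate 1 stood far above the rest, WT replicate 3 was second, and KO replicate 3, with high plasma protein genes, was near the WT level. Its KO mean was 1.39-fold of WT, and 0.813-fold without KO replicate 1. The hepatocyte enzyme genes Fbp1, of gluconeogenesis, Aadac, an esterase, and Rdh16, a retinol dehydrogenase, which are not members, had the same 2 highest arrays. They were chosen after their values were seen, so this likeness is no independent support. Of the 29 measured genes in their list, 14 were highest in KO replicate 1 (2993 of all 19937 genes). WT replicate 3 was the highest WT array for 6 of the 29 (6694 of all 19937). Fbp1 was at 8.32 in KO replicate 1 and 6.47 in WT replicate 3 and at 4.46 to 5.62 elsewhere. Aadac was at 7.10 and 4.99 on these 2 arrays and at 3.85 to 4.35 elsewhere, and Rdh16 at 7.25 and 5.65 and at 4.03 to 4.63 elsewhere. These 2 arrays were also the highest for Vil1, the villin gene of the intestine list, at 6.23 and 5.21 against 4.50 to 4.66. Vil1 too was chosen after its values were seen, and the list as a whole did not share this order. Vil1 was the 1 gene of the 12 in that list with its highest value in KO replicate 1. Of the 12, 5 had a higher and 7 a lower mean in KO. For Alb and the fibrinogen genes WT replicate 3 was in contrast the lowest array, so the listed liver genes did not all follow 1 order.

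**Figure D4:**
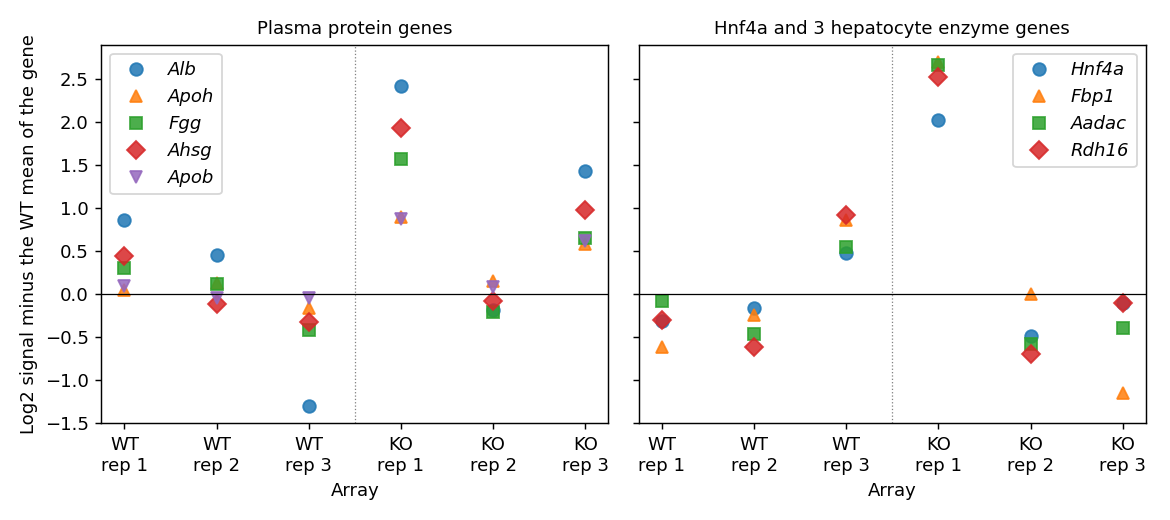
Log2 signal on each array minus the WT mean of the gene, for 5 plasma protein genes (left) and for Hnf4a with 3 hepatocyte enzyme genes (right). On the left KO replicates 1 and 3 are high and WT replicate 3 is at or below the WT mean, while on the right KO replicate 1 and WT replicate 3 are the 2 highest arrays of each gene. The 3 enzyme genes were chosen after their values were seen.

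Of the 4 genes that are also made in adipose tissue, Hp, Orm1 and Cyp2e1 were bright, and Arg1, described above, was dim. Hp, the gene of haptoglobin, which binds free haemoglobin, was at 12.24, 11.46 and 12.27 in WT and 12.20, 12.19 and 11.91 in KO (1.08-fold). Its lowest arrays were WT replicate 2 and KO replicate 3, the pair with high Xist signal. Orm1, an acute phase carrier protein, had its highest values on this same pair, at 10.58, 11.48 and 10.56 in WT and 10.97, 10.79 and 11.48 in KO (1.16-fold). Cyp2e1, a cytochrome P450 that oxidises ethanol and acetone, lay between 12.54 and 12.86 on all arrays (1.05-fold). None of the 3 had its highest value in KO replicate 1, unlike Alb, Ahsg and 17 other members.

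The values were also described as deviations from the mean of each genotype. Genes chosen for a KO mean raised by KO replicates 1 and 3 share such deviations through that choice, so their likeness is no independent support. For 19 of the 31 genes these deviations had a Pearson r of at least 0.8 over the 6 arrays with the mean of the other 30 genes, a description in which all values share the same arrays and the removal of the genotype means leaves little freedom. The largest r were those of Apob (0.98), Apoh (0.97), Fgg (0.96) and Ahsg (0.96). By group the median r was 0.86 for genes chiefly from liver, 0.82 for genes of liver and another organ and 0.06 for genes also made in adipose tissue. Hp (-0.18), Vtn (-0.25), Mbl2 (-0.17) and Arg1 (-0.01) had an r below 0. Without KO replicates 1 and 3, the arrays farthest from the median, the median r over the 31 genes went from 0.82 to 0.67. Of the 4 arrays left, KO replicate 2 is then its own genotype mean and has no deviation. This r therefore rests on the WT arrays alone, and with so few arrays a high r shows little.

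Among 1365 genes that are not members and span at least 1 on the log2 scale within a genotype, those most like the mean of the members by this r were Pzp (0.998), Mat1a (0.989), Ces1c (0.965), Hpx (0.958) and Cldn10 (0.919). Fabp1 (0.890), Gja1 (0.881), D630039A03Rik (0.878), Slc38a3 (0.872) and Ccdc152 (0.864) followed. Pzp encodes a plasma protease inhibitor, Ces1c a plasma carboxylesterase and Hpx the haem carrier hemopexin, while Fabp1 is a fatty acid binding protein of liver and intestine and Mat1a makes S-adenosylmethionine in liver. Pzp was at 5.14, 5.06 and 4.68 in WT and at 6.29, 4.95 and 5.86 in KO (1.67-fold), and Fabp1 at 4.77, 4.03 and 3.64 in WT and at 5.73, 4.52 and 5.66 in KO (2.23-fold). In both, KO replicates 1 and 3 were highest. These genes were picked by this r, so an order within each genotype like that of the members follows from the choice. Gja1, of gap junctions, is expressed in many tissues and was far brighter than these, at 8.78 to 9.96.

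Of 100 other hepatocyte genes, 87 were measured. None passed an adjusted p of 0.05 from limma in either direction, while 3 had an unadjusted p under 0.05, all higher in KO, and none passed by the methods' t-test after adjustment. Of all genes 0.838% had such a p in either direction and 0.361% with the higher mean in KO. Their median difference was 0.11, and 68 were higher in KO. 69 of the 87 lay below the median signal on every array. The list mean was 4.88, 4.83 and 4.80 in WT and 5.17, 4.79 and 5.02 in KO, the same order of KO arrays as for the members. The largest differences were those of Serpina1c, an α1-antitrypsin gene (2.38-fold, adjusted p = 1.0 from limma), and Hamp, the gene of the iron hormone hepcidin (1.93-fold, adjusted p = 1.0 from limma). Serpina1c, which has near-identical relatives and is uncertain for that reason, was at 6.41 in WT replicate 1, above 2 of the KO arrays. Hamp was at 4.11, 3.76 and 3.41 in WT and 4.86, 4.07 and 5.18 in KO. Cyp4a14 (1.63-fold), Slc27a2 (1.52-fold), Rdh16 (1.49-fold), Aadac (1.48-fold), Uox (1.43-fold), Fbp1 (1.43-fold), Kng1 (1.41-fold) and Hpx (1.37-fold) came next, all highest in KO replicate 1.

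Markers of other cells differed less between arrays than the liver genes in some lists and more in others. Kupffer cell genes, of the macrophages of liver, had list means of 5.10 to 5.27 in WT and 5.02 to 5.15 in KO (2 of 5 higher in KO, 4 of 5 below the median signal on every array), with Clec4f, specific to these cells, at 5.02 to 5.11 and 5.05 to 5.26. Pancreas acinar genes lay at 4.47 to 4.64 in WT and 4.54 to 4.64 in KO (5 of 10 higher), and kidney tubule genes at 4.84 to 4.93 and 4.83 to 4.93 (5 of 9). In these 2 lists 9 of 10 and 8 of 9 genes lay below the median signal on every array. Intestine genes (5 of 12 higher, 8 of 12 below the median signal on every array) had means of 5.28, 5.21 and 5.28 in WT and 5.29, 5.27 and 5.32 in KO. KO replicate 1 was barely above WT replicate 1 (5.292 against 5.283), and this list holds Vil1, at 6.23 in KO replicate 1. Macrophage genes were at 8.10 to 8.39 and 8.09 to 8.31 (4 of 9). Bile duct genes, most of which other epithelia also express, varied more, at 7.65, 6.80 and 6.47 in WT and 7.02, 7.51 and 6.23 in KO (3 of 5), and were highest in WT replicate 1 and KO replicate 2. Skeletal muscle genes (3 of 12 higher in KO) had means of 6.63, 8.68 and 5.63 in WT and 5.73, 6.27 and 8.73 in KO, and brown adipocyte genes (5 of 6) 5.59, 7.41 and 5.58 in WT and 5.85, 5.77 and 7.45 in KO. Both were high on the pair that was also high for Itih4, Orm1 and Xist. Epididymis genes (4 of 11) stood at 5.91 for WT replicate 1 and 5.53 for KO replicate 2 and at 4.05 to 4.19 for the rest. Red blood cell genes (4 of 5) were at 5.22, 5.09 and 5.20 in WT and 5.23, 5.17 and 5.33 in KO. Here KO replicate 1 was barely above WT replicate 1 (5.229 against 5.220). Mesothelium genes lay at 8.13 to 8.78 (4 of 9) and acute phase genes at 7.65 to 7.88 (8 of 13). The part of other cells in the liver gene values was not tested.

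**Figure D5:**
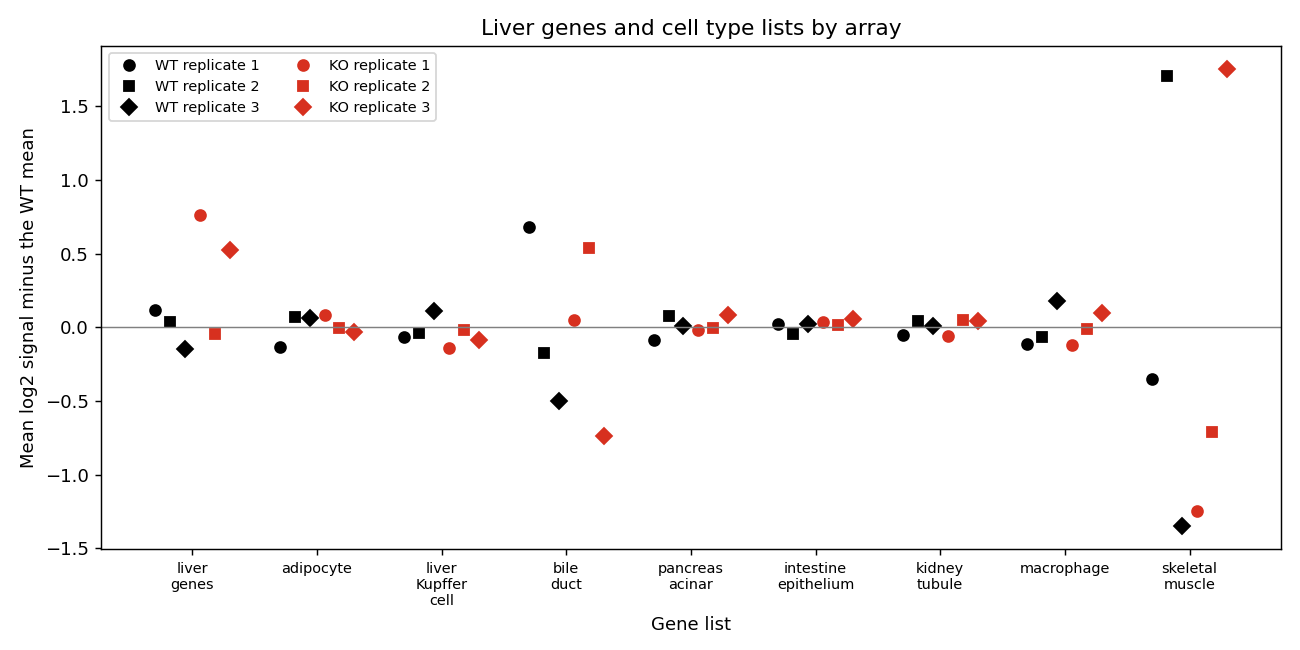
Mean log2 signal of the 31 liver genes and of 8 cell type lists on each array, minus the WT mean of the list (WT black, KO red, symbols by replicate). The liver genes had means of 6.75 and 6.51 in KO replicates 1 and 3 against a WT mean of 5.99, the lists of Kupffer cell, pancreas, intestine and kidney genes stay near 0 on all arrays, and skeletal muscle genes stand out in WT replicate 2 and KO replicate 3. Most genes of the lists that stay near 0 lay below the median signal on every array, where differences are compressed.

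The same contrast, by which the list was proposed, is also described on each side of the Xist split. Without the 2 arrays with high Xist signal, 27 of the 31 genes were higher in KO, with a median of 0.35. This came mostly from KO replicate 1, higher for 29 and 27 genes than WT replicates 1 and 3. KO replicate 2 was higher for only 10 and 21, with medians of -0.09 and 0.12. Between the 2 arrays with high Xist signal, 30 of 31 were higher in KO replicate 3 than in WT replicate 2, with a median of 0.45. In the genes chiefly from liver these medians were 0.35 (16 of 17) and 0.52 (17 of 17). With 2 arrays against 2 and 1 against 1, these are values of single animals.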

How the data were processed

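Adipose tissue RNA of 3 WT and 3 cavin-3 KO mice was amplified and hybridised to Affymetrix Mouse Gene 1.0 ST arrays, and the scans were processed with GenePattern modules. The authors deposited linear intensity values of 34760 probe sets, and the submitters' processing notes name RMA, which corrects background, quantile normalizes and summarises probes. Without scanner files, detection above background was not assessed, and the number of arrays limits precision. The genome build behind the probe annotation was not given in the sources used here.

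Values were taken to log2. KO and WT were compared over all probe sets with limma 3.58.1 in R 4.3.3 (lmFit and eBayes, no covariate), with Benjamini-Hochberg adjustment, and the fit was tested on simulated data. Genes were named from the 21640 probe sets with 1 symbol (1321 had several and 11799 none), and the probe set with the highest mean over the 6 arrays stood for a gene. The report names all 33 members, the 10 most similar other genes, the 10 other hepatocyte genes with the largest difference, and genes that check the samples. The promoter members printed, and Fbp1, Aadac, Rdh16 and Vil1 beside Hnf4a, were chosen after their values were seen. The members, lists and groups of genes were chosen with earlier results of these data known. Lists are described by counts and medians, with no test of a list. Lists of brown adipocyte, mesothelium, epididymis, red blood cell and acute phase genes were also computed. Alternatives were other normalizations, scales, filters and fits, a replicate block, and leaving out arrays.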

Additional observations from a re-analysis of the deposited data

How the results depend on the processing

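The list was proposed from this contrast on these same arrays, so a direction that holds here is no independent support. The direction of the median over all measured liver genes held under every alternative run, with 0.20 to 0.59 against 0.40. It was lowest without WT replicate 3 and KO replicate 1 and highest without KO replicate 2, and without each array in turn it was 0.26 to 0.59. The mean over the genes was 0.16 to 0.64 under the same alternatives (0.41 with all arrays). Leaving out each array gave 27 to 30 genes higher in KO, and the 10 genes above the median signal gave 9. The number of members without overlap fell from 3 to 2 after quantile normalization and to 2 after median centring. It was 3 to 21 without single arrays, 5 without the arrays of high Xist signal (13.7% of all genes) and 0 of 10 among brighter genes. KO replicate 1 was highest for 19 to 23 members without other single arrays and for 4 of the 10 brighter ones. The median of genes chiefly from liver was 0.26 to 0.62 without single arrays, 0.21 without WT replicate 3 and KO replicate 1, and 0.70 for the 3 brighter of them. That of genes of liver and another organ was 0.28 to 0.84 without single arrays and 0.16 without that pair. That of genes also made in adipose tissue was 0.028 to 0.11 without single arrays, 0.12 after quantile normalization, and 0.0087 without the arrays of high Xist signal. Among the other hepatocyte genes the median turned from 0.11 to -0.041 in the 7 that lie above the median signal (3 higher in KO). It was 0.07 to 0.17 without single arrays, with 59 to 78 of 87 higher.

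Of the 31 single genes, 12 changed direction under at least 1 of 17 alternatives, namely Alb, Ambp, Arg1, Cyp2e1, Cyp3a11, Hnf4a, Hp, Itih4, Mbl2, Otc, Tdo2 and Vtn, and 19 under none. The count of 2 probe sets called by limma became 0 without the arrays of high Xist signal, 0 by the methods' t-test on log2 or linear values, and 1 to 2 without single arrays. Whether animals with the same replicate number were paired is not given by the labels. The deviations of arrays with the same number had an r of -0.15, -0.37 and -0.09. WT replicate 1 was most like KO replicate 2 (0.52), WT replicate 2 like KO replicate 3 (0.48) and WT replicate 3 like KO replicate 1 (0.37). With so few arrays these r do not settle whether animals were paired. With a replicate block the member median stayed at 0.40 and 0 probe sets were called. The causes were not tested. Dim signals limit the low genes, since RMA compresses differences near the floor.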
